A study of Mus musculus with 6 samples.

Results

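Striatal projection neuron markers were measured as a check of basal forebrain tissue in hypothalamus libraries. The set held 8 genes of the 24513 in the count tables, chosen by name: Drd1, Drd2, Adora2a, Gpr6, Ppp1r1b, Pde10a, Rgs9 and Six3. RNA came from whole hypothalamus of 3 NS-DADm and 3 WT mice, all C57BL/6 animals of 3 to 4 months. Total RNA of 1 mouse went into each library, which makes the 3 replicates of either group separate animals. NS-DADm mice, as known for this line and not from the labels, carry point mutations in the deacetylase-activating domain of the corepressors NCOR1 and SMRT in all tissues, which limits their activation of the histone deacetylase HDAC3. The labels name no treatment.

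The striatum lies in the basal forebrain, in front of and beside the hypothalamus. Most of its neurons are inhibitory projection neurons of a direct and an indirect pathway, which read dopamine in opposite ways: the direct pathway carries the receptor DRD1, which raises cyclic AMP, and the indirect pathway carries DRD2, which lowers it. Both use the same cyclic AMP machinery, in which PPP1R1B (DARPP-32) and PDE10A are abundant. Several of these genes, Drd2 and Six3 among them, are also used by hypothalamic or pituitary cells, so the set is not equally specific for striatum.

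Because the receptors of this set act on cyclic AMP, promoter sequence was searched for the cyclic AMP response element. The search covered the full element TGACGTCA and its core TGACG on both strands, and each full element also holds the core on each strand. Promoters of 6 of the 8 genes were found in the RefSeq table (GRCm38.p6). The 250 bases before the start of the dopamine receptor pair and of Gpr6 are shown 5′ to 3′ with any match in capitals. They are Drd1 (chr13:54055659-54055908, minus strand, the upstream one of its 2 listed starts), Drd2 (chr9:49340153-49340402, plus strand) and Gpr6 (chr10:41072291-41072540, minus strand).
Drd1: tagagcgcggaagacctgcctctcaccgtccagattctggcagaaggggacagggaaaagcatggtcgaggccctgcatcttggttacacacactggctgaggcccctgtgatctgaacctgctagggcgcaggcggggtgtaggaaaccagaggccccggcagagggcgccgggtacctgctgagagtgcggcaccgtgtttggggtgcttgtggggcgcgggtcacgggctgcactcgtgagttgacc
Drd2: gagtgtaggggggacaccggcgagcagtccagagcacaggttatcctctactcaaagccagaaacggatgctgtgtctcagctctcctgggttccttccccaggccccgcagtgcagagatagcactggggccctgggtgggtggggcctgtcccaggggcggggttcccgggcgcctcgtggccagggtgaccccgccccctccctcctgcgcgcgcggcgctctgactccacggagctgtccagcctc
Gpr6: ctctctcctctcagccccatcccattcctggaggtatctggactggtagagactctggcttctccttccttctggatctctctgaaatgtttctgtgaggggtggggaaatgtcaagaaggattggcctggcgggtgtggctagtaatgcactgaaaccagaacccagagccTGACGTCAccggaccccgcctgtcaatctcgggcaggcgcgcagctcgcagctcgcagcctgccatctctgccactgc
Gpr6 alone of the 6 held the full element, which occurs in 1.55% of 32851 promoter windows of this length. The core on either strand occurs in 17.8% of them, and neither window of Drd1 nor that of Drd2, Rgs9, Six3 or Pde10a (2 listed starts) held it. These are letter matches in a fixed window and do not show binding. The windows of Six3 and Pde10a lie inside the gene positions given below for these genes. Sequence before those annotated gene starts was not searched.

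The libraries held 24.2 to 27.5 M reads on genes (in units of 1e6) in NS-DADm and 26.5 to 27.6 M in WT. All 8 striatal genes had reads in each library and passed the filter on low counts, which left 15894 genes. Hypothalamus markers were present, with a summed level of 10 genes of 578 to 703 CPM (reads per 1e6 gene reads) in NS-DADm libraries and 577 to 628 CPM in WT libraries, and Oxt and Avp, the oxytocin and vasopressin genes, as those with the highest mean over all 6 libraries. Ncor1 averaged 226 ± 3.9 CPM in NS-DADm libraries and 230 ± 7.4 CPM in WT libraries (SD, n = 3 each), and Hdac3 averaged 107 ± 0.63 CPM in NS-DADm libraries and 99.6 ± 2.6 CPM in WT libraries. Neither level tests a change in coding sequence.

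On a scale of CPM per 1000 bases of annotated exon, which allows levels of different genes to be set side by side, Rgs9 was the highest of the 8 at 13.9 as a mean over the 6 libraries. Ppp1r1b, Six3 and Pde10a followed at 6.95, 6.94 and 6.49, and their ranges over the libraries overlapped, so their order is not fixed. Drd2 stood at 5.03, below the Six3 and Pde10a values of every library. Ppp1r1b lay below Drd2 on this scale in NS-DADm 2, NS-DADm 3 and WT 2 and above it in the other libraries, so the order of that pair differed between libraries. Drd2 was above Drd1 at 2.19 and Gpr6 at 2.0, whose ranges overlapped. Adora2a was lowest at 0.76, with a range of 0.26 to 1.52 that lay below that of Gpr6. The largest of these per-length values was thus that of a G-protein regulator, and the smallest that of the adenosine receptor.

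Among the receptors, Drd1 (chromosome 13, 54051183 to 54055705, minus strand), the excitatory dopamine receptor of the direct pathway, measured 10.6, 5.86 and 5.59 CPM in NS-DADm 1, 2 and 3, against 10.4, 6.47 and 8.71 CPM in WT 1, 2 and 3. It was highest in the library numbered 1 of each group, and the groups overlapped. These levels rested on 147 to 259 counts in NS-DADm and 177 to 285 in WT.

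Adora2a (chromosome 10, 75316877 to 75334784, plus strand), the stimulatory adenosine receptor that opposes DRD2 in indirect-pathway neurons, measured 3.68, 0.91 and 0.80 CPM in NS-DADm 1, 2 and 3, against 4.64, 0.80 and 3.22 CPM in WT 1, 2 and 3. The counts behind these values were 90, 25 and 21 in NS-DADm and 127, 22 and 85 in WT. NS-DADm 1, WT 1 and WT 3 were therefore high and the other 3 libraries low, and both groups held libraries of each kind.

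Drd2 (chromosome 9, 49340627 to 49408177, plus strand), the inhibitory dopamine receptor, did not follow that order. It measured 13.8, 12.5 and 12.5 CPM in NS-DADm 1, 2 and 3, against 13.2, 12.6 and 12.1 CPM in WT 1, 2 and 3. The highest library exceeded the lowest by 1.14 times, whereas the same ratio was 5.81 for Adora2a, although both mark indirect-pathway neurons in striatum. Drd2 is also used by pituitary hormone cells. Anterior pituitary markers, 10 genes with Gh and Prl as the most abundant, summed to 2022 CPM in NS-DADm 2 and to 199 and 203 CPM in NS-DADm 3 and 1. The WT libraries held 39.9 to 111 CPM of them. None of these 10 genes was at 0 in any library. Drd2 in NS-DADm 2 lay within the range of the other libraries, and the part of pituitary RNA in its level was not tested.

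Gpr6 (chromosome 10, 41069977 to 41072285, minus strand) encodes a constitutively active orphan receptor that raises cyclic AMP and is enriched in indirect-pathway neurons. It measured 3.35, 4.27 and 3.99 CPM in NS-DADm 1, 2 and 3, against 3.18, 3.03 and 3.64 CPM in WT 1, 2 and 3. NS-DADm 1 was the lowest of its group here and lay below WT 3, so the groups overlapped.

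Of the intracellular signalling genes, Ppp1r1b (chromosome 11, 98348404 to 98357796, plus strand) varied most. Its product DARPP-32 inhibits protein phosphatase PP1 once protein kinase A has phosphorylated it. Ppp1r1b measured 32.9, 13.4 and 12.9 CPM in NS-DADm 1, 2 and 3, against 30.5, 12.4 and 20.2 CPM in WT 1, 2 and 3. The order was that of Drd1 at its upper end, with NS-DADm 1 and WT 1 highest and WT 3 next. An antisense gene, 1700003D09Rik, shares 460 exon bases with Ppp1r1b. Whether reads on those bases were assigned to a gene or set aside as ambiguous is not known, because the strand setting is not given. The antisense gene had 4 to 12 counts in NS-DADm libraries and 1 to 14 in WT libraries, where Ppp1r1b had at least 338 in each.

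Pde10a (chromosome 17, 8525372 to 8986648, plus strand), a phosphodiesterase that breaks down cyclic AMP and cyclic GMP, measured 91.6, 72.3 and 76.8 CPM in NS-DADm 1, 2 and 3, against 96.8, 75.9 and 87.2 CPM in WT 1, 2 and 3. WT 1, NS-DADm 1 and WT 3 were again the 3 highest, as for Adora2a, but over a range of only 1.34 times.

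Rgs9 (chromosome 11, 109225355 to 109298129, minus strand), which shortens the signal of dopamine and opioid receptors by speeding GTP hydrolysis on G proteins, measured 107, 87.2 and 92.1 CPM in NS-DADm 1, 2 and 3, against 84.4, 80.4 and 81.1 CPM in WT 1, 2 and 3. All NS-DADm values lay above all WT values, with NS-DADm 1 the farthest from the others. Six3 (chromosome 17, 85613608 to 85629302, plus strand), a homeobox transcription factor of the developing forebrain and eye that indirect-pathway neurons need, measured 38.8, 38.6 and 36.7 CPM in NS-DADm 1, 2 and 3, against 33.0, 40.2 and 39.5 CPM in WT 1, 2 and 3. WT 1, high for Drd1, Adora2a and Ppp1r1b, was the lowest library for Six3. The antisense gene Six3os1 shares 106 exon bases with Six3 and averaged 18.5 ± 2.5 CPM in NS-DADm libraries and 17.1 ± 1.8 CPM in WT libraries.

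**Figure D1:**
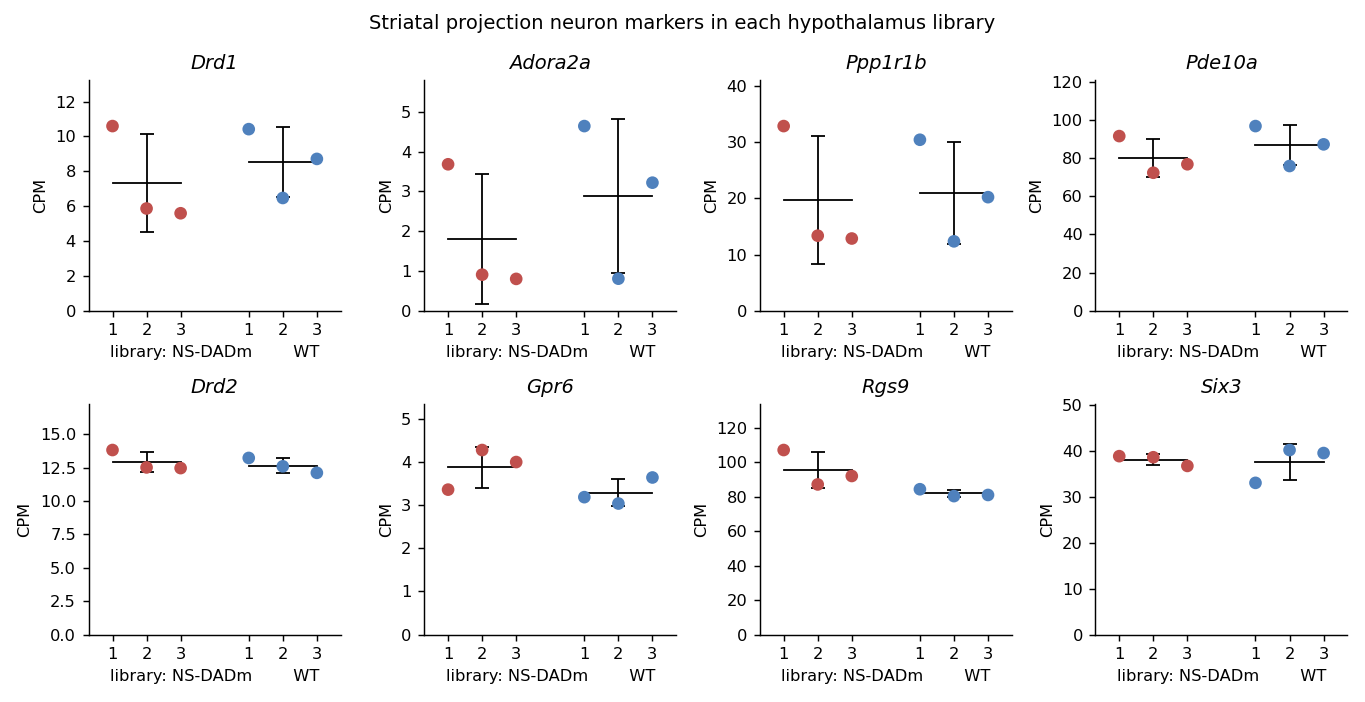
CPM of each striatal marker in each library, NS-DADm 1 to 3 on the left in red and WT 1 to 3 on the right in blue, with the group mean as a line and the SD as an error bar (n = 3). Drd1, Adora2a and Ppp1r1b are highest in the library numbered 1 of each group, while Drd2 runs only from 12.1 to 13.8 CPM.

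The 8 genes thus differed in how far libraries of 1 genotype lay apart. The SD of log2 CPM within groups was 1.22 for Adora2a, 0.71 for Ppp1r1b and 0.43 for Drd1, at or above that of 99.9%, 99.5% and 96.6% of all genes tested, against a median of 0.10 over those genes. It was 0.07 for Drd2, at or above 33.7% of genes, and 0.11 to 0.18 for Rgs9, Six3, Gpr6 and Pde10a. Low counts alone widen this SD, so the counts were also set against counting noise. Within groups, a chi-square per degree of freedom, which is about 1 under counting noise alone, was 139 for Ppp1r1b, 37.3 for Adora2a, 33.5 for Pde10a and 20.1 for Drd1. It was 15.3 for Rgs9 and 6.12 for Six3, but 0.91 for Drd2 and 1.13 for Gpr6. Most genes exceed 1: the median over all genes tested was 2.33 and the 90th percentile 12.1. Ppp1r1b, Adora2a, Pde10a, Drd1 and Rgs9 lay above that percentile and Drd2 and Gpr6 below the median. With 1 library per mouse, differences between mice, dissections and library preparations cannot be told apart.

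**Figure D2:**
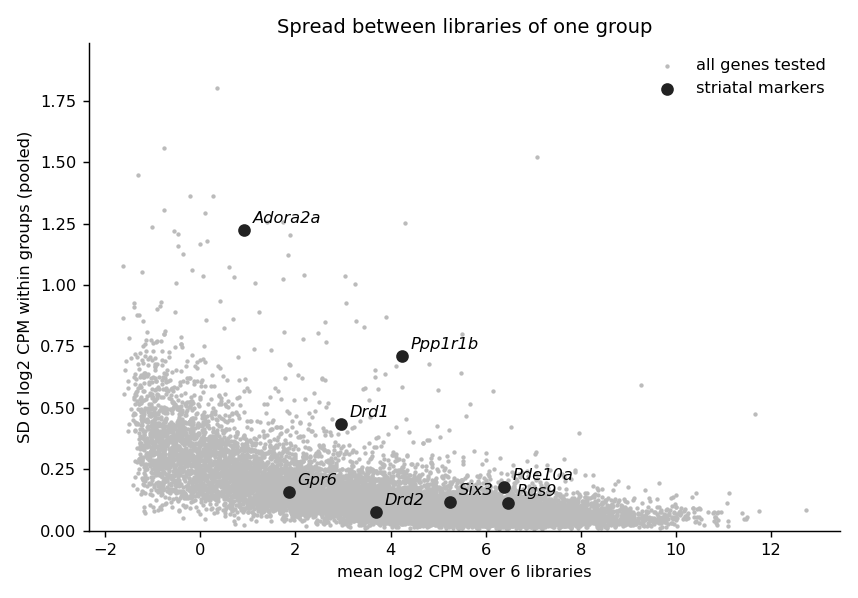
SD of log2 CPM within groups, pooled over NS-DADm and WT, against mean log2 CPM for the 15894 genes tested (grey) and the 8 striatal markers (black, labelled). Adora2a, Ppp1r1b and Drd1 lie above most genes of like level, and Drd2 lies within them.

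In both groups the library numbered 1 was the highest of its 3 for Drd1, Drd2, Adora2a, Ppp1r1b, Rgs9 and Pde10a, 6 of the 8 genes, as in 18.1% of all genes tested. For Drd1, Adora2a and Ppp1r1b it was also at least 1.5 times the lowest library in both groups, as in 1.01% of all genes tested. This pattern was chosen after the values were seen and is given as a description. Drd2 is counted among the 6, although its chi-square per degree of freedom within groups was 0.91, about that of counting noise alone. All 11 genes of the cyclic AMP and G-protein signalling list shared by projection neurons had the library numbered 1 on top in both groups. For 0 of the 11 was it at least 1.5 times the lowest library in both groups. Of 6 direct-pathway genes only Chrm4, the muscarinic M4 receptor, had the library numbered 1 on top in both groups. Tac1 and Pdyn, peptide genes that hypothalamic neurons also use, did not. That order was also seen in 1 of 3 indirect-pathway genes and 1 of 9 projection neuron transcription factors.

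Markers of cholinergic neurons, found in the basal forebrain and among striatal interneurons, differed between the same libraries. The 4 genes Slc5a7, Chat, Lhx8 and Slc18a3 summed to 34.3, 9.45 and 17.5 CPM in NS-DADm 1, 2 and 3, against 35.2, 8.37 and 16.1 CPM in WT 1, 2 and 3. Each of the 4 was at least 1.5 times the lowest library in the library numbered 1 of both groups, and none was at 0 in any library. WT 3 and NS-DADm 3 had similar cholinergic sums but 3.22 and 0.80 CPM of Adora2a, so the 2 sets of genes did not order all libraries alike. Of the 5 cortex and hippocampus markers tested, Slc17a7, a vesicular glutamate transporter, was also highest in the library numbered 1 and lowest in the library numbered 2 of each group, with 7.08, 1.81 and 5.78 CPM in NS-DADm 1, 2 and 3, against 34.0, 14.5 and 20.2 CPM in WT 1, 2 and 3. It was lower in NS-DADm without overlap of the groups but did not pass the threshold (log2 -2.25; edgeR, BH adjusted p = 0.33). In bulk tissue, fewer cells of a type and less RNA per cell cannot be told apart, and the amount of basal forebrain tissue in each dissection was not measured by other means.

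**Figure D3:**
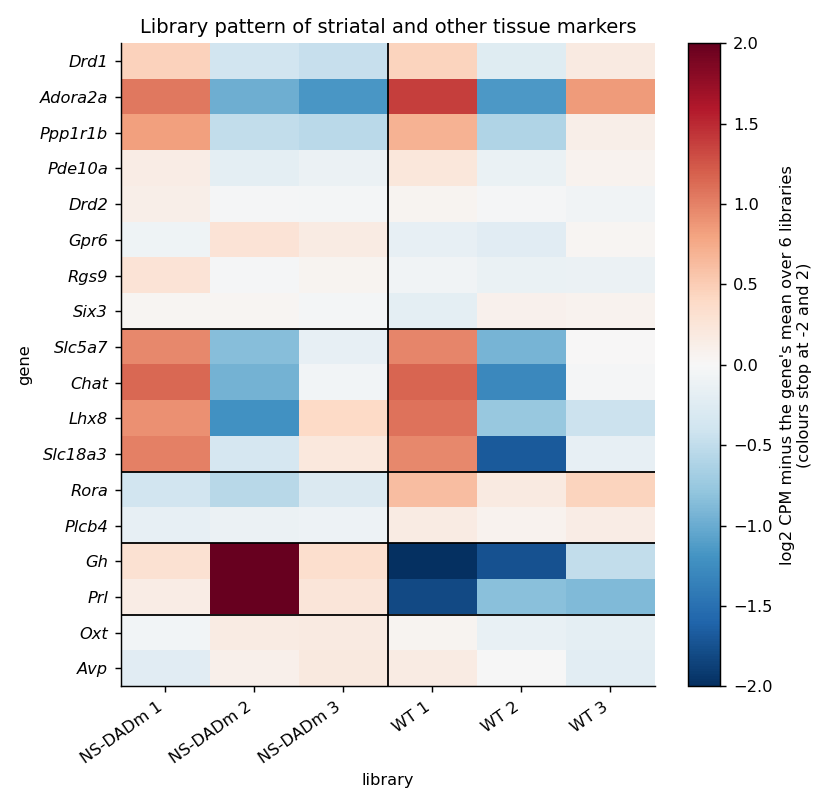
Log2 CPM of each gene (rows) minus its mean over the 6 libraries (columns, NS-DADm left of WT), with striatal markers at the top, then cholinergic, thalamus, pituitary and hypothalamus markers, separated by lines. NS-DADm 1 and WT 1 are red for Drd1, Adora2a, Ppp1r1b and the cholinergic genes, whereas thalamus markers split by genotype. WT 3 is also above the gene's mean for Drd1, Adora2a, Ppp1r1b and, slightly, Slc5a7, and NS-DADm 3 for Lhx8 and Slc18a3.

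NS-DADm was then compared with WT to see whether the striatal markers differed by genotype. None of the 8 genes passed the threshold in the edgeR quasi-likelihood test with Benjamini-Hochberg (BH) adjustment over all genes tested, where 0.654% of genes were called, 0.0818% as higher and 0.573% as lower in NS-DADm. At an unadjusted p under 0.05 there was 1, Rgs9, against 10.9% of all genes, and with DESeq2 and limma voom 0 of the 8 were called. The libraries of the groups did not overlap for Rgs9 alone, 1 of 8, as in 16.8% of all genes tested, or 7.86% with NS-DADm the higher group as here. The median log2 fold change over the 8 genes was -0.04, beside 0.004 over all genes, with 4 fitted above and 4 below 0.

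Rgs9 averaged 95.5 ± 10 CPM in NS-DADm libraries and 82.0 ± 2.1 CPM in WT libraries (SD, n = 3 each), a log2 fold change of 0.22 ± 0.07 SE with a 95% interval of 0.07 to 0.37 (edgeR, BH adjusted p = 0.23). Without NS-DADm 1 it was fitted at 0.13. Gpr6 averaged 3.87 ± 0.47 CPM in NS-DADm libraries and 3.28 ± 0.31 CPM in WT libraries, with a log2 fold change of 0.24 ± 0.14 SE (edgeR, BH adjusted p = 0.61).

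For the genes with little spread the data bound the difference closely. The 95% interval of the log2 fold change was -0.15 to 0.21 for Drd2 and -0.14 to 0.18 for Six3, which as ratios of NS-DADm to WT are 0.90 to 1.16 and 0.91 to 1.13. Drd2 averaged 12.9 ± 0.77 CPM in NS-DADm libraries and 12.7 ± 0.56 CPM in WT libraries, with an edgeR BH adjusted p of 0.94. Six3 averaged 38.0 ± 1.2 CPM in NS-DADm libraries and 37.6 ± 3.9 CPM in WT libraries (edgeR, BH adjusted p = 0.97). Pde10a, with a wider SD of log2 CPM within groups of 0.18, was bound less closely. It averaged 80.2 ± 10 CPM in NS-DADm libraries and 86.6 ± 10 CPM in WT libraries, with an interval of -0.36 to 0.14 (edgeR, BH adjusted p = 0.80).

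For the genes with wide spread the data bound it poorly. Adora2a averaged 1.80 ± 1.6 CPM in NS-DADm libraries and 2.89 ± 1.9 CPM in WT libraries, a log2 fold change of -0.71 with a 95% interval of -3.20 to 1.77 (edgeR, BH adjusted p = 0.87). Without NS-DADm 1 it was -1.75 and without WT 1 it was -0.18. Ppp1r1b averaged 19.7 ± 11 CPM in NS-DADm libraries and 21.0 ± 9.1 CPM in WT libraries, with a log2 fold change of -0.10 and an interval of -1.66 to 1.46 (edgeR, BH adjusted p = 0.98). It was -0.68 without NS-DADm 1 and 0.27 without WT 1, so its sign depended on single libraries. Drd1 averaged 7.35 ± 2.8 CPM in NS-DADm libraries and 8.53 ± 2.0 CPM in WT libraries, with -0.22 and an interval of -0.94 to 0.50 (edgeR, BH adjusted p = 0.87). The intervals of these 3 genes include a difference of the size fitted for Rgs9.

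**Figure D4:**
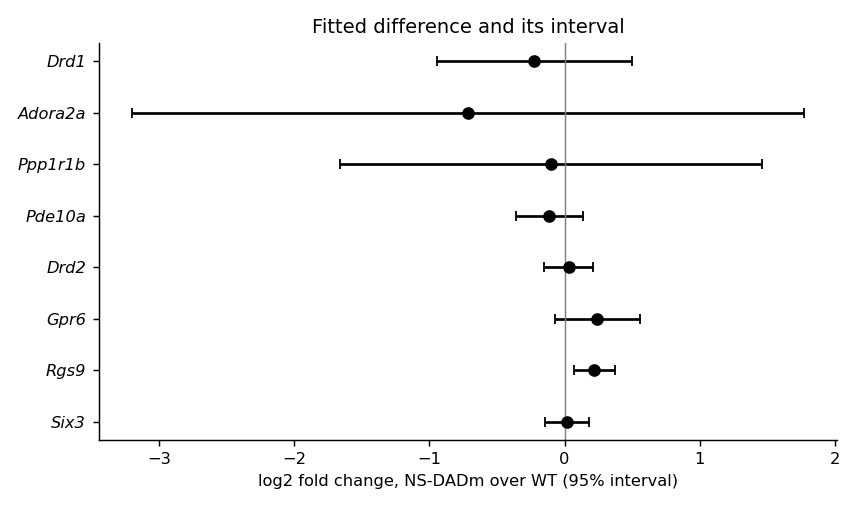
Fitted log2 fold change of each striatal marker, NS-DADm over WT, with its 95% interval from the edgeR fit (n = 3 each). The interval of Rgs9, 0.07 to 0.37, lies above 0 before adjustment, and those of Adora2a and Ppp1r1b span more than 1 log2 unit on each side.

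Markers of the neighbouring thalamus are given beside this comparison, from a list chosen with earlier results of these data known, so its direction is not independent evidence. All 10, with Rora and Plcb4 as the most abundant, had lower values in every NS-DADm library than in any WT library, as in 8.93% of all genes tested, and 6 of them were past the threshold, as in 0.573% of all genes. They summed to 411 to 457 CPM in NS-DADm libraries and 626 to 886 CPM in WT libraries. None of the 10 was at 0 in any library. Their part in the comparison of the striatal genes was not tested.

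Ratios within a library do not depend on scaling. The log2 ratio of Drd1 to Drd2 counts was -0.38, -1.09 and -1.16 in NS-DADm 1, 2 and 3, against -0.34, -0.96 and -0.48 in WT 1, 2 and 3, and the group means differed by -0.28, NS-DADm minus WT (exact two-sided permutation test, p = 0.30). The log2 ratio of Adora2a to Drd2 was -1.90, -3.76 and -3.93 in NS-DADm 1, 2 and 3, against -1.51, -3.94 and -1.91 in WT 1, 2 and 3, a difference of -0.75 (exact two-sided permutation test, p = 0.70). With 3 against 3 libraries this test cannot go below 0.10. As plain ratios, Adora2a reached 0.27 to 0.35 of the Drd2 count in NS-DADm 1, WT 1 and WT 3 and 0.06 to 0.07 in the other libraries.

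Partner genes of the striatal set were read from 7 lists, with 58 genes tested. Of these 1 fell in NS-DADm, 0 rose and 57 did not pass, a share of 1.72% called against 0.654% of all genes tested. At an unadjusted p under 0.05 there were 13 of the 58, or 22.4%, against 10.9% of all genes. The gene that fell was Gpr12, a paralog of Gpr6 and likewise a constitutively active receptor that raises cyclic AMP. It measured 14.3, 13.5 and 16.9 CPM in NS-DADm 1, 2 and 3, against 21.5, 19.7 and 21.6 CPM in WT 1, 2 and 3 (a log2 difference of -0.49 with an SE of 0.09; edgeR, BH adjusted p = 0.031). The groups did not overlap. Gpr12 kept its direction but lost its call without NS-DADm 1, NS-DADm 2, NS-DADm 3 or WT 3, at adjusted p of 0.085, 0.20, 0.063 and 0.14 in edgeR. Summed thalamus marker levels were also lower in NS-DADm, as given above, and their part in this difference was not tested.

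Of 14 paralogs tested, 13 did not pass, all but Gpr12. Gpr3, another paralog of Gpr6, had a log2 fold change of -0.05 with overlapping groups (edgeR, BH adjusted p = 0.95). Drd5, an excitatory dopamine receptor of the DRD1 class, averaged 4.20 ± 0.30 CPM in NS-DADm libraries and 5.47 ± 0.19 CPM in WT libraries (log2 -0.38; edgeR, BH adjusted p = 0.22). Adora1, the inhibitory adenosine receptor, averaged 106 ± 3.4 CPM in NS-DADm libraries and 116 ± 8.0 CPM in WT libraries. Rgs7, a relative of Rgs9, averaged 63.3 ± 1.4 CPM in NS-DADm libraries and 69.6 ± 3.5 CPM in WT libraries. Neither of the 2 passed.

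None of the 6 direct-pathway genes passed, and their median log2 fold change was 0.06. Pdyn, the prodynorphin gene, averaged 69.9 ± 2.9 CPM in NS-DADm libraries and 60.6 ± 8.3 CPM in WT libraries, with overlapping libraries. Tac1, for substance P, and Isl1, a transcription factor, had log2 fold changes of 0.09 and 0.16, and Chrm4 of -0.16. None of the 3 indirect-pathway genes passed (median -0.11). Penk, the proenkephalin gene, averaged 90.7 ± 11 CPM in NS-DADm libraries and 97.7 ± 2.8 CPM in WT libraries, and Sp9, a transcription factor of indirect-pathway neurons, had -0.31.

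None of the 11 shared signalling genes passed, with 10 fitted below 0 and a median of -0.11. Rgs7bp, which anchors RGS9 and its relatives at the membrane, averaged 99.2 ± 11 CPM in NS-DADm libraries and 133 ± 13 CPM in WT libraries without overlap (log2 -0.43; edgeR, BH adjusted p = 0.080). Its direction was opposite to that of Rgs9. Gnal, the stimulatory G protein through which DRD1 and ADORA2A signal, and Rasd2, a small GTPase, had -0.11 and -0.19, and Rasgrp2, an activator of RAP GTPases, had 0.14.

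None of the 9 transcription factors passed (median -0.07). Foxp1, needed for projection neuron development, averaged 34.8 ± 2.8 CPM in NS-DADm libraries and 46.2 ± 5.0 CPM in WT libraries without overlap and was just short of the threshold (log2 -0.41; edgeR, BH adjusted p = 0.051). Its relative Foxp2, the retinoic acid receptor gene Rarb and the homeobox gene Dlx6 had -0.50, -0.20 and 0.18.

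None of the 11 kinases and phosphatases that act on or below DARPP-32 passed (median -0.06). Ppp1cc, a catalytic subunit of PP1, and the calcineurin subunits Ppp3cb and Ppp3r1 had log2 fold changes of -0.17, -0.10 and -0.08, and the kinase gene Cdk5 had -0.07. None of the 4 dopamine neuron genes passed (median 0.13), Ddc, Th, Slc18a2 and Slc6a3 all being fitted above 0 with 0.10 to 0.18.

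**Figure D5:**
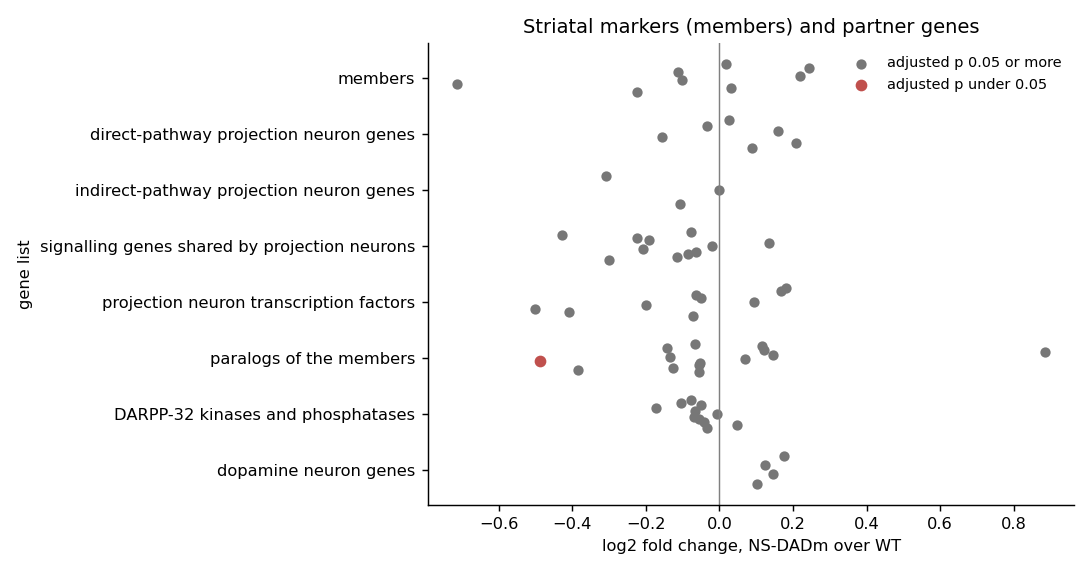
Log2 fold change, NS-DADm over WT, of each tested gene in the striatal set (top row) and in the 7 partner lists, with genes past the adjusted threshold in red. The only red point is Gpr12, at -0.49, in the row of paralogs.

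The genes most like the striatal set across libraries were sought by Pearson correlation of log2 CPM over the 6 libraries. The search covered 14526 other genes that averaged 1 CPM or more. Each was set against the mean log2 CPM of the 8 striatal genes. That mean was 4.31, 3.75 and 3.71 in NS-DADm 1, 2 and 3, against 4.26, 3.67 and 4.10 in WT 1, 2 and 3, and its spread is mostly that of Adora2a and Ppp1r1b. The 5 highest were Pdzd3 (r = 1.00), Ano2 (0.99), Tiam2 (0.99), Creb3 (0.99) and Pop5 (0.99). Their sizes differed: Ano2, a calcium-activated chloride channel, ran 2.61 times from the lowest to the highest library, against 1.05 times for the transcription factor gene Creb3. Spearman rank correlation was 1 for Pdzd3, Ano2 and Pop5, 0.94 for Tiam2 and 0.77 for Creb3, so not all 5 shared the exact order of libraries. These 5 genes were picked as the top of 14526 genes over 6 points, and the values are a description with no test.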

How the data were processed

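Total RNA of 6 hypothalamus libraries was sequenced, 3 NS-DADm and 3 WT, grouped by their titles. The authors deposited raw read counts per gene symbol. TopHat2 2.0.9, HTSeq and the mm10 build are named in the submitters' processing notes. Annotation, strand setting and kit: not given in the sources used here. Rows of unassigned reads, 5 per table, were left out of library sizes: reads outside genes made up 13.3 to 14.8% of entries, ambiguous reads 1.00 to 1.06% and multiple alignments 14.3 to 16.5%, so genes with near-identical copies may be undercounted.

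After filterByExpr and TMM scaling, 15894 genes were fitted with glmQLFit (robust) and glmQLFTest in edgeR 4.0.16 (R 4.3.3), with BH adjustment and a threshold of 0.05. The SE is the log2 fold change over the root of its F statistic, and 95% intervals use that SE and the model's degrees of freedom. CPM used TMM-scaled library sizes, and log2 CPM a prior count of 2. Ratios had 0.5 added to each count. Exon lengths and positions came from GENCODE M21 (GRCm38, the build mm10 names), promoters from RefSeq. The fit was tested on simulated data. DESeq2 1.42.0 and limma 3.58.1 were run as alternatives, and figures were drawn with matplotlib 3.10.9.

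Genes named were all 8 striatal genes, Ncor1 and Hdac3, up to 4 of each partner list with the smallest p, and Gpr3 beside Gpr12. Up to 2 of each marker list with the highest CPM and the 5 with the highest Pearson correlation to the striatal mean were also named. Lists of oligodendrocyte, astrocyte and microglia markers had 0 of 5 past the threshold each, and those of cortex and of septum and pallidum 0 of 5 and 0 of 4. The members and lists were chosen with earlier results of these data known. P-values set the difference between groups against the spread between libraries, each from a separate mouse.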

Additional observations from a re-analysis of the deposited data

How the results depend on the processing

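None of the 8 striatal genes was called with other scaling factors, DESeq2, limma voom, either other count filter or any 1 library left out. The count of genes called over the whole table moved from 104 to 282 with DESeq2, 203 with no count filter and 563 without NS-DADm 1 and WT 1 together (chosen after seeing the data), and to between 5 and 312 with 1 library left out: it was 5, 8 and 10 without NS-DADm 2, NS-DADm 3 or WT 3, and 312 and 262 without WT 1 or WT 2. The cause was not tested.

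Replicate numbers were not shown to pair the samples, since the same-numbered deviations from group means correlated at 0.13, 0.09 and -0.03 and NS-DADm 3 was not closest to WT 3. With the replicate number as a block, 409 genes and 1 striatal gene were called, Rgs9 at a log2 fold change of 0.22 (edgeR, BH adjusted p = 0.040; 0.10 to 0.53 over the other fits).

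Leaving out 1 library gave log2 fold changes of -0.57 to -0.05 for Drd1, -0.016 to 0.068 for Drd2, -1.75 to -0.18 for Adora2a, -0.68 to 0.27 for Ppp1r1b, 0.13 to 0.28 for Rgs9, -0.22 to -0.02 for Pde10a, 0.17 to 0.33 for Gpr6 and -0.063 to 0.070 for Six3. Signs changed for Drd2 (-0.016 without NS-DADm 1), Six3 (-0.063 without WT 1, and -0.077 without NS-DADm 1 and WT 1 together) and Ppp1r1b (0.12, 0.13 and 0.27 without NS-DADm 2, NS-DADm 3 or WT 1). The difference of the log2 ratio of Drd1 to Drd2 was -0.53 to -0.14 and that of Adora2a to Drd2 -1.49 to -0.28. With paired differences by replicate block their exact p was 0.25 and 0.50, the smallest possible being 0.25, and 0 or 2 added counts moved them little. Adora2a rested on the fewest counts of the 8 at the low end, 21 to 127 per library, and its spread within groups exceeded counting noise, with a chi-square per degree of freedom of 37.3.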
